A study of Mus musculus with 37 samples.

Results

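Polycomb repressive complex 2 (PRC2) is represented here by 9 genes, taken from the count table by symbol: Ezh1, Ezh2, Eed, Suz12, Jarid2, Mtf2, Phf19, Rbbp4 and Rbbp7. They are 9 of the 35542 genes in the table, and all 9 were measured and passed the filter on low counts.

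PRC2 places methyl groups on lysine 27 of histone H3 and so keeps developmental genes silent, the Hox clusters among them. EZH2 or its paralogue EZH1 is the catalytic subunit, and works only together with EED, which binds the finished mark, and SUZ12, the scaffold of the complex. RBBP4 and RBBP7 bind histones and also serve in other chromatin complexes, while the PCL proteins MTF2 and PHF19 and the protein JARID2 help to bring different forms of PRC2 (PRC2.1 and PRC2.2) to their targets. In the embryo EZH2 is the usual enzyme of dividing cells and EZH1 that of resting ones.

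RNA-seq was performed on tailbud tissue, 1 library per embryo, from 37 embryos with 6 to 11 somites at embryonic day 8 to 8.5. All were F1 embryos of C57BL/6 and Castaneus (Cast) parents. The 21 Smchd1 wt embryos were Smchd1 fl/+ and came from Smchd1 fl/fl, MMTV-Cre +/+ mothers. The 16 Smchd1 matdel embryos were Smchd1 del/+ and came from Smchd1 del/fl, MMTV-Cre T/+ mothers, so that they grew from oocytes deleted for Smchd1, a gene for a chromatin protein that acts in silencing, but kept the allele of a Cast father. The wt and matdel groups therefore differ both in the oocyte's supply and in the embryo's own dose of Smchd1, and these cannot be told apart here. From 6 to 11 somites there were 4, 4, 3, 3, 4 and 3 wt embryos and 4, 3, 2, 2, 3 and 2 matdel embryos. By sex, 13 wt and 11 matdel embryos were female, 8 wt and 5 matdel embryos were male, and all 8 embryos at 6 somites were female.

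The libraries held 0.916 to 80.6 times 1e6 counts (median 12.9). The shallowest was matdel replicate 3 at 6 somites, which also gave the lowest matdel values of Eed (96 counts) and Jarid2 (66 counts). Smchd1 itself was at 104.0, 149.4 and 203.6 CPM (counts per 1e6 counts; lowest, median and highest) in wt embryos and at 64.1, 90.3 and 113 CPM in matdel embryos, of which 14 of 16 lay below every wt embryo. All 12 tailbud markers had a median of at least 1 CPM, whereas 3 of 4 markers of formed somites (Uncx, Tcf15 and Pax1) did not. Markers of erythroid cells and of endoderm were also present, summing to 9.44 to 4172 CPM over 5 genes and to 11.7 to 2381 CPM over 6 genes. Surface ectoderm markers (3 genes, 239.4 to 762.4 CPM) and endothelial markers (5 genes, 160 to 379.1 CPM) were present in every embryo. The surface ectoderm genes (Krt8, Krt18 and Epcam) are not restricted to that tissue. Their sum cannot be told apart from that of other epithelia, endoderm among them. The male wt replicate 1 at 10 somites stood apart, with tailbud markers at 919.4 CPM (1557 to 2454 in the other embryos). The matdel replicates 1 and 2 at 6 somites had 1.82 to 2.77% of their counts on ribosomal RNA loci, against 0.176 to 1.28% elsewhere, and are called rRNA-rich. Replicate 2 of these also had the highest somite markers (47.1 CPM, at most 13.98 CPM in any other embryo), and replicate 1 the highest surface ectoderm markers (762.4 CPM). Some results are also given without these 2 libraries, namely the Mtf2 difference at 6 somites, the slopes of Suz12 and Mtf2, and values that turned direction.

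To place the promoters of the genes that the results turn on, the 250 bases before the transcription start are given from RefSeq (GRCm38.p6), 5′ to 3′ on the strand of the gene, for both catalytic genes and for Suz12 and Mtf2, the pair whose levels were most alike across embryos. Capitals mark the letters CCAAT on either strand (a site type bound by NF-Y) and the letters TTTCCCGC, TTTCGCGC, TTTGCCGC or TTTGGCGC on either strand (a site type bound by E2F factors, which drive genes of the cell cycle).
Ezh2, chr6:47595031-47595280, minus strand: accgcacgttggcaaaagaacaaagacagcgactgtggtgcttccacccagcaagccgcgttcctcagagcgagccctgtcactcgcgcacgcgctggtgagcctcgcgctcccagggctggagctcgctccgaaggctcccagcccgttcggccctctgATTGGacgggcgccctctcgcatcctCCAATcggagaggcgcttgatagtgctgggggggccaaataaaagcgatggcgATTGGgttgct
Ezh1, chr11:101226464-101226713, minus strand: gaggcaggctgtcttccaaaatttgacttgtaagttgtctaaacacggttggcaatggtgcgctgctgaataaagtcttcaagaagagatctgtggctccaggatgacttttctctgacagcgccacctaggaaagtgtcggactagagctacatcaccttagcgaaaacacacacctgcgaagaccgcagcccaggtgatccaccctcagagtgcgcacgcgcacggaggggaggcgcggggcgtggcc
Suz12, chr11:79992856-79993105, plus strand: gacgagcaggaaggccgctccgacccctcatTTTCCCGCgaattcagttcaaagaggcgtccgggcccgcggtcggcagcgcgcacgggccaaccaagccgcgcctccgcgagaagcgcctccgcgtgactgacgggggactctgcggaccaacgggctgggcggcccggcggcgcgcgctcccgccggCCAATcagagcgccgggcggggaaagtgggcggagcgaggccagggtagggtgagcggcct
Mtf2, chr5:108065424-108065673, plus strand: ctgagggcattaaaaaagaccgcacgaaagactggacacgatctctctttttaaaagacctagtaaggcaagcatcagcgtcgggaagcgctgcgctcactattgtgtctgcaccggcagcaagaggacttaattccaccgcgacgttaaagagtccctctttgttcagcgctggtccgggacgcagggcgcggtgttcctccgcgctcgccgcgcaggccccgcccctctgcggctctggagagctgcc

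Over windows that also take in the 50 bases after the start, Ezh2 held 3 CCAAT letters, at -90, -64 and -11 bases from the start, and an E2F match 4 bases after it, outside the printed stretch. Suz12 held an E2F match at -219 and CCAAT at -61, and neither Ezh1 nor Mtf2 held a match to either. Among all 9 genes, 3 windows held the E2F letters (Ezh2, Suz12 and Phf19), against 2.27% of 32851 RefSeq windows of the same length. CCAAT was in 6 of 9 windows, against 37.4% of all windows. The ETS letters CCGGAAG (in 8.86% of all windows), the NRF1 palindrome (0.971%) and the TATA box letters TATAAA (13.6%) were in none of the 9. The 4 windows were rich in CpG, with 31 CpG in Ezh2, 23 in Ezh1, 41 in Suz12 and 30 in Mtf2, where the median of all windows was 7. These matches describe the letters alone. Each of the E2F strings holds a CpG, and the shares over all windows were not matched for CpG. They are thus not a comparison of like with like. The RefSeq start of Ezh2 used here lies inside the gene as the count table bounds it.

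The levels of the subunits were first compared within the complex. As the transcripts differ in length, levels were divided by the length of each gene's merged exons and are given as CPM per kb (lowest, median and highest of the 21 wt embryos). The histone-binding genes stood highest, the core genes and Mtf2 formed a middle group close together, and Jarid2, Ezh1 and Phf19 followed in steps. Less RNA per cell and fewer cells of an expressing type cannot be told apart in bulk tissue, here or in any later comparison.

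**Figure D1:**
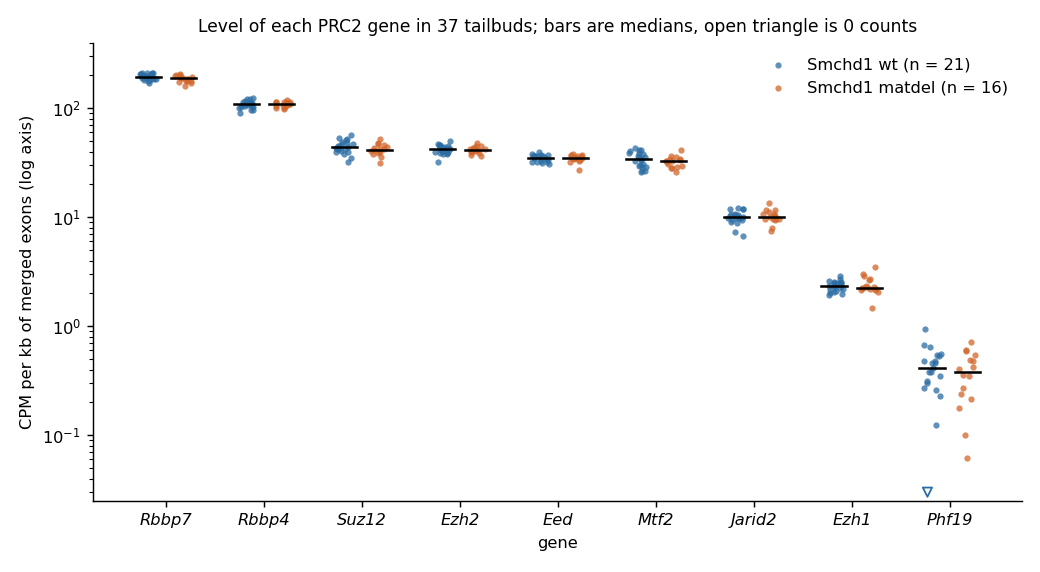
Levels of the 9 PRC2 genes in CPM per kb of merged exons (log axis), with a point for each of the 37 embryos, coloured by genotype, and a bar at each genotype's median; the open triangle marks the wt library with 0 counts of Phf19. The wt medians fall from 195.7 for Rbbp7 to 0.412 for Phf19, and the matdel points overlap the wt points in every gene.

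Ezh2, on chromosome 6 (47530139 to 47595341, minus strand), had 32.4, 42.5 and 50.0 CPM per kb. Its paralogue Ezh1, on chromosome 11 (101191115 to 101226463, minus strand), had 1.95, 2.34 and 2.90 CPM per kb. Every wt embryo thus held far more Ezh2 than Ezh1 RNA, and the ranges did not approach each other. Within an embryo the ratio of Ezh2 to Ezh1 per kb had a median of 17.8 over all 37 embryos (12.1 to 25.1). Among 14211 genes with a mean of at least 1 CPM, ranked by level per kb, Ezh2 was at percentile 91.2 and Ezh1 at 29.3.

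The core genes were close to Ezh2. Suz12, also on chromosome 11 (79993106 to 80034123, plus strand), had 32.1, 44.0 and 57.3 CPM per kb. Eed, on chromosome 7 (89954654 to 89980983, minus strand), had 30.6, 35.3 and 39.8 CPM per kb. The 3 ranges overlapped widely, and all 3 genes lay between percentiles 89.0 and 91.3 of level.

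Among the accessory genes, Mtf2, on chromosome 5 (108065674 to 108109004, plus strand), was at the level of the core, with 26.1, 34.5 and 43.0 CPM per kb. Jarid2, on chromosome 13 (44729474 to 44921643, plus strand), had 6.67, 10.02 and 12.04 CPM per kb. Phf19, on chromosome 2 (34893757 to 34914026, minus strand), had 0, 0.412 and 0.940 CPM per kb and stood at percentile 5.85. Of the PCL genes, then, Mtf2 supplied nearly all of the RNA, with a median ratio to Phf19 of 75.4 per kb. Phf19 was read from 0 to 131 counts per library (median 26), with fewer than 10 counts in 5 libraries. The library with 0 counts, wt replicate 2 at 7 somites (3.06 in units of 1e6 counts), allows up to 0.980 CPM (3 counts), so that Phf19 was not detectable there rather than absent.

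The histone-binding genes were the most abundant. Rbbp7, on chromosome X (162760402 to 162779092, plus strand), had 170.3, 195.7 and 211.3 CPM per kb. Rbbp4, on chromosome 4 (129307100 to 129335370, minus strand), had 90.5, 109.3 and 123.1 CPM per kb. These ranges did not overlap with each other or with any other member, and they stood at percentiles 98.67 and 97.45 of level.

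Neighbours in the order of wt medians were tested within embryos by a paired permutation test (8 pairs, two-sided, 100000 sign flips, Benjamini-Hochberg adjustment over the pairs). Rbbp7 exceeded Rbbp4 by 1.80-fold, Rbbp4 exceeded Suz12 by 2.46-fold, Mtf2 exceeded Jarid2 by 3.41-fold, Jarid2 exceeded Ezh1 by 4.22-fold and Ezh1 exceeded Phf19 by 6.21-fold, each in 21 of 21 embryos (adjusted permutation p = 1.333e-05, from the smallest p that these resamples can give, 1e-05). Ezh2 exceeded Eed by 1.20-fold in 20 of 21 embryos (adjusted permutation p = 1.333e-05). Suz12 and Ezh2 were not separated by the test, at 1.06-fold and higher in 17 of 21 embryos (adjusted permutation p = 0.0538), nor were Eed and Mtf2, at 1.03-fold and higher in 10 of 21 (adjusted permutation p = 0.369). The fold of Ezh1 over Phf19 depends on the count added before the log (2 at average depth, scaled to library size), as Phf19 was at 0 in 1 embryo.

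The length used matters for neighbours that lie close. Per kb of coding sequence of the longest protein, Rbbp4 (749.4) stood above Rbbp7 (446.5), Ezh2 (126.8) above Suz12 (97.8) and Mtf2 (110.5) above Eed (102.2), in wt medians of CPM per coding kb. The wide steps kept their direction, from Rbbp4 and Rbbp7 down to Jarid2 (26.3), Ezh1 (7.74) and Phf19 (1.20). Levels of Mtf2 carry a further limit, since Tmed5 on the opposite strand shares 395 exonic bases with it and had 52.9% as many counts. The sources name a stranded and a non-stranded kit without saying which embryos had which. Whether reads of such overlapping genes were told apart is therefore not known. The opposite-strand genes that share exonic bases with Rbbp4 (Gm26722), Rbbp7 (Txlng), Suz12 (Gm26563), Eed (E230029C05Rik) and Ezh2 (Gm26625) had 4.03 to 11.7% as many counts as the member, and Sync, which shares a further 782 exonic bases with Rbbp4, had 0.474%.

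The genes also differed in how much they varied between embryos. The SD of log2 CPM over wt embryos was 0.088 for Rbbp7, 0.099 for Eed and 0.12 for Rbbp4, within the lowest 7.43% of 9760 genes with a mean of at least 10 CPM. It was 0.14 for Ezh2 and 0.15 for Ezh1. Suz12 (0.20), Jarid2 (0.21) and Mtf2 (0.23) were near or above the median of all these genes (0.20). The steadiest members were thus the histone-binding genes and Eed, and the most variable of the well-read members was Mtf2. Phf19, below this level, had a CV of 48.4% over wt embryos, on few counts.

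The second comparison asked whether loss of maternal SMCHD1 changes the supply of PRC2 RNA. All embryos were compared at matched somite number, with sex as a covariate, by edgeR's quasi-likelihood test on the counts. None of the 9 genes passed the test between wt and matdel embryos (0 of 9 at an adjusted p under 0.05, where 0.0136% of 14733 genes passed). The count was also 0 at an unadjusted p under 0.05, where 5.66% of genes passed, and 0 with DESeq2. Smchd1 in the same fit was lower by 0.74 on the log2 scale (SE 0.074, adjusted p = 1.271e-07 by edgeR). All 12 tailbud markers had positive log2 differences (median 0.105, 2 at an unadjusted p under 0.05), where 51.1% of all genes did. All 6 endoderm markers were also positive and all 5 endothelial markers negative, none at such a p. Of the erythroid markers 3 were positive and 2 negative. At 6 to 8 somites all 12 tailbud markers were again positive, 4 of them at such a p. The part of these tissues in the result was not tested.

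Ezh2 had 216.1, 283.8 and 333.7 CPM in wt and 245.1, 277.3 and 323.4 CPM in matdel embryos (lowest, median and highest). All 16 matdel embryos lay inside the wt range. The log2 difference, matdel minus wt, was -0.011 (SE 0.044), with a 95% interval that runs from 6.71% lower to 5.61% higher. Ezh1 had 14.5, 17.4 and 21.6 CPM in wt and 10.9, 16.9 and 25.96 CPM in matdel embryos, with 12 of 16 matdel embryos inside the wt range. Its CV over matdel embryos was 19.3%, the largest next to that of Phf19 (50.3%), and its interval ran from 7.48% lower to 13.8% higher.

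For the core genes the intervals were of similar width. Eed had 117.1, 135.2 and 152.4 CPM in wt and 104.9, 134.8 and 147.2 CPM in matdel embryos, and its difference lay between 4.86% lower and 5.86% higher. Suz12 had 158.8, 217.3 and 283.3 CPM in wt and 156.4, 206.5 and 256.0 CPM in matdel embryos, and its difference lay between 12.6% lower and 2.62% higher. In both genes 15 of 16 matdel embryos were inside the wt range, so the groups overlapped almost fully.

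The accessory genes gave wider intervals. Mtf2 had 148.7, 196.7 and 244.9 CPM in wt and 148.1, 186.7 and 237.3 CPM in matdel embryos, a difference between 13.1% lower and 4.10% higher. Jarid2 had 64.8, 97.4 and 116.9 CPM in wt and 72.1, 97.9 and 130 CPM in matdel embryos, between 6.07% lower and 12.5% higher. Again 15 of 16 matdel embryos were inside the wt range for each. Phf19 had 0, 2.08 and 4.74 CPM in wt and 0.310, 1.92 and 3.59 CPM in matdel embryos, and at this depth differences from 39.1% lower to 29.0% higher remain within its interval.

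The histone-binding genes gave the narrowest intervals. Rbbp4 had 791, 955.4 and 1077 CPM in wt and 868.9, 955.4 and 1035 CPM in matdel embryos, between 3.87% lower and 5.39% higher. Rbbp7 had 495.5, 569.3 and 614.6 CPM in wt and 462.3, 546.4 and 595.2 CPM in matdel embryos, between 8.93% lower and 0.482% higher. Rbbp7 had the smallest p of the 9 genes (unadjusted p = 0.0756, adjusted p = 0.866 by edgeR), and 1 matdel embryo lay below every wt embryo. Over the 9 genes 4 differences were positive and 5 negative, with a median log2 difference of -0.011, and 51.1% of all genes tested were positive.

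**Figure D2:**
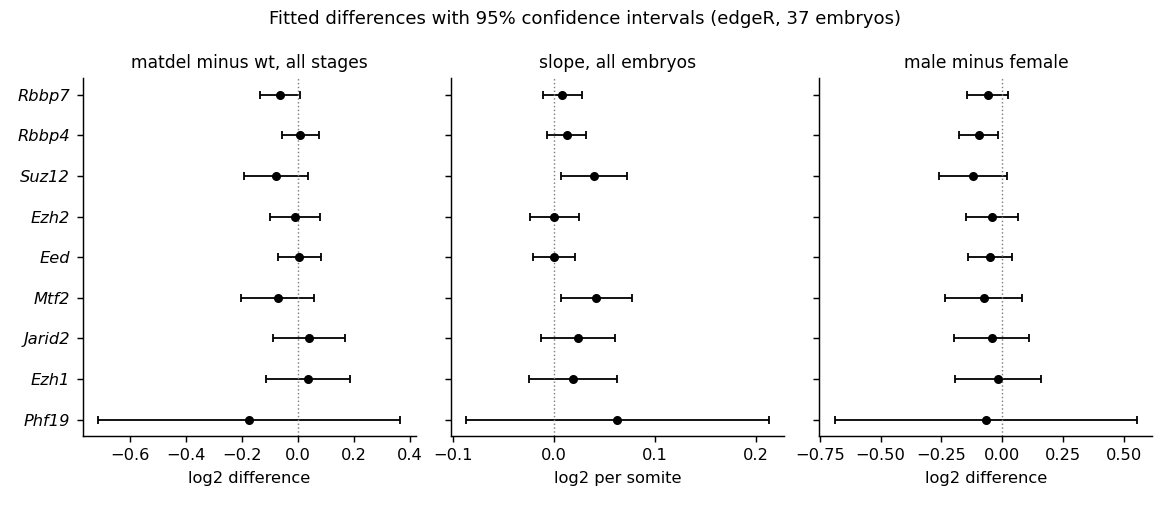
Fitted log2 differences of the 9 PRC2 genes with 95% intervals (edgeR), for matdel minus wt at matched somite number, for the change per somite in all embryos, and for male minus female. Every genotype interval spans 0, the slope intervals of Suz12 and Mtf2 lie just above 0, and the sex interval of Rbbp4 lies just below 0, none of these passing the adjusted threshold.

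The same held within narrower windows of development. At 6 to 8 somites 0 of 9 genes passed (0.00690% of genes did), with log2 differences from -0.37 for Phf19 to 0.097 for Jarid2. At 9 to 11 somites 0 of 9 passed (0.00671% of genes), with differences from -0.071 for Rbbp7 to 0.14 for Ezh1. When the windows were tested against each other, 0 of 9 genes passed (0% of genes). None of the 9 had an unadjusted p under 0.05 in these 3 tests, where 8.13%, 1.75% and 3.36% of genes had, and none passed with DESeq2.

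At single somite stages 54 tests were made for the 9 genes, none passed by edgeR or DESeq2 (0% of genes passed by edgeR at every stage), and 3 had an unadjusted p under 0.05. The share of all genes with such a p was 5.54%, 4.83%, 2.81%, 1.15%, 0.560% and 8.66% from 6 to 11 somites. Smchd1 itself, with log2 differences of -0.56 to -0.96, passed at no single stage (adjusted p = 0.19 to 0.9999 by edgeR). These tests thus did not call even the deleted gene. At 6 somites Mtf2 had 166.1, 222.5, 188.8 and 215.6 CPM in the wt embryos and 148.1, 161.9, 161.7 and 164.8 CPM in the matdel embryos. All 4 matdel embryos lay below all 4 wt embryos, by 0.32 on the log2 scale (SE 0.11, adjusted p = 0.862 by edgeR). Of these matdel libraries, replicates 1 and 2 were rRNA-rich and replicate 3 was the shallowest of the series, with 148 counts of Mtf2. Beside it, 4 of 4 tested erythroid markers had positive log2 differences, 2 of them at an unadjusted p under 0.05. Of the matdel embryos only replicate 4 lay above the wt embryos in summed erythroid markers, at 3090 CPM. Replicates 1 to 3 were at 129.8, 112.8 and 39.3 CPM, against 53.3 to 142.3 CPM in the wt embryos. All 3 surface ectoderm markers (median 0.23, none at such a p) and the 1 tested somite marker (2.55, with such a p) were also higher. Both sums were highest in the rRNA-rich replicates 1 and 2. The part of these cells was not tested. Without the 2 rRNA-rich matdel libraries the log2 difference of Mtf2 was -0.28.

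At 7 somites Jarid2 had 91.3, 70.9, 102.1 and 85.3 CPM in the wt embryos and 112.8, 109.2 and 99.1 CPM in the matdel embryos. The groups overlapped in 1 embryo each, and the difference was 0.27 on the log2 scale (adjusted p = 0.962 by edgeR). At this stage all 6 endoderm markers were lower in the matdel embryos (median -1.04), 5 of them at an unadjusted p under 0.05. All 5 erythroid markers (median -1.73, 0 at such a p) and all 3 surface ectoderm markers (median -0.215, 1 at such a p) were lower too. Of 12 tailbud markers 11 were higher and 1 lower (median 0.14, 4 at such a p). At 11 somites Suz12 had 251.1, 239.2 and 260.2 CPM in the wt embryos and 192.7 and 218.6 CPM in the matdel embryos. Both matdel embryos lay below the wt embryos, by 0.28 on the log2 scale (adjusted p = 0.567 by edgeR). Here all 5 erythroid markers were higher in the matdel embryos (median 1.75), each at an unadjusted p under 0.05. The part of these cells in the differences of Jarid2 and Suz12 was not tested. Neither Mtf2 at 7 somites (0.16) nor Suz12 at 10 somites (0.054) had a negative log2 difference, so the single-stage differences of these genes did not keep a common sign.

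The third comparison followed the genes over development, as the change in log2 CPM per somite with sex as a covariate. In the 21 wt embryos 0 of 9 genes passed (6.61% of 15667 genes did), and none had an unadjusted p under 0.05, where 21.4% of genes had. In the 16 matdel embryos 0 of 9 passed (2.95% of 16222 genes), and Suz12 (0.059 per somite) and Mtf2 (0.051) had an unadjusted p under 0.05 (17.1% of genes had). Without the 2 rRNA-rich libraries these slopes were 0.030 and 0.032. The difference in slope between genotypes passed for 0 of 9 (0% of genes; 0 of 9 unadjusted, where 3.67% of genes had such a p). DESeq2 likewise called none of the 9 in these fits.

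**Figure D3:**
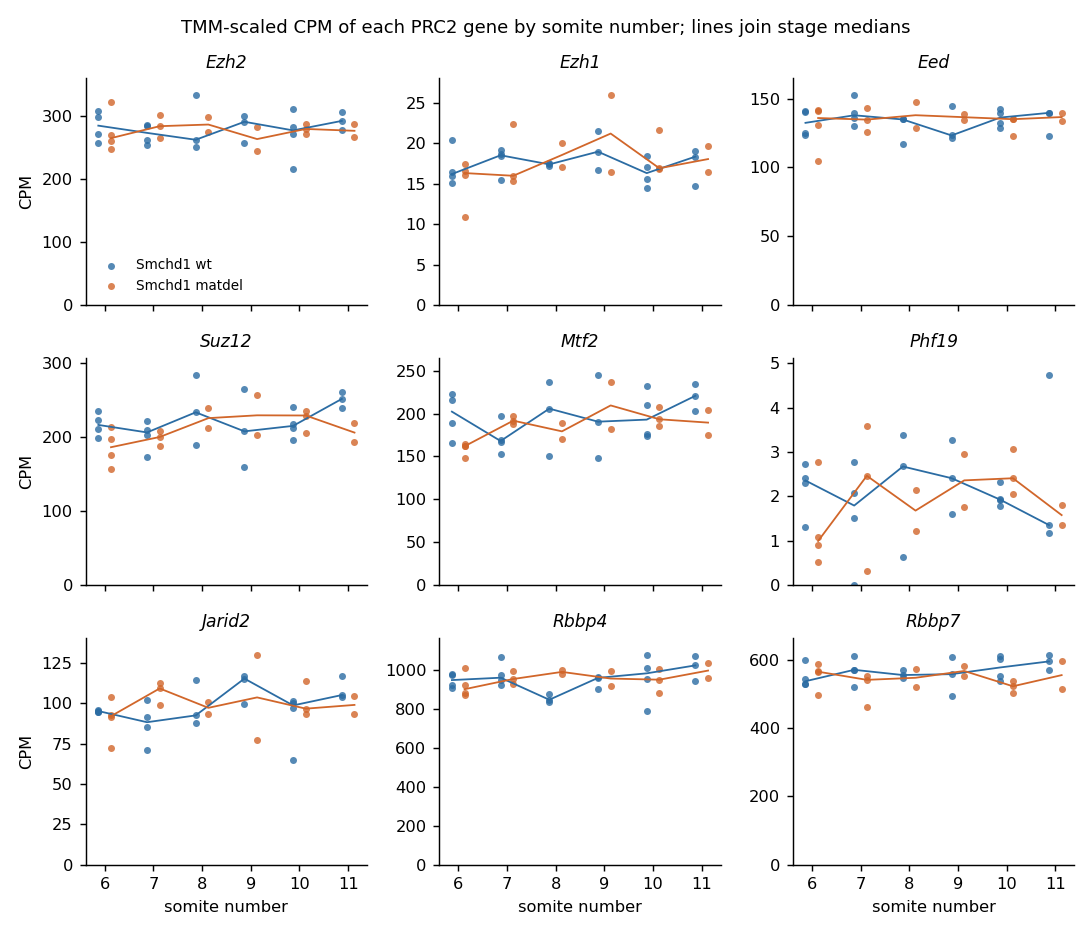
CPM of each PRC2 gene against somite number, with a point per embryo coloured by genotype and lines joining the medians of each stage. Ezh2 and Eed are level from 6 to 11 somites, Suz12 and Mtf2 vary widely between embryos of a stage, and the lowest Jarid2 point is wt replicate 1 at 10 somites.

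Ezh2 was level. Its stage medians from 6 to 11 somites were 285.4, 273.8, 262.9, 291.5, 277.8 and 292.9 CPM in wt and 265.5, 284.5, 287.1, 264.0, 280.1 and 277.2 CPM in matdel embryos. No stage stood apart in either genotype. Over all 37 embryos its slope was 0.00025 per somite, and the 95% interval over 5 somites ran from 7.96% lower to 8.84% higher. Eed was level as well, with stage medians of 123.2 to 139.6 CPM in wt embryos and a slope over all embryos of -0.00029 per somite (95% interval -0.021 to 0.021).

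Over all embryos Suz12 and Mtf2 had the largest slopes next to Phf19, and both fell short of the threshold. The order differed within a genotype, where Jarid2 in wt embryos (0.030) and Ezh1 in matdel embryos (0.063) had larger slopes than Suz12 (0.029 and 0.059). The stage medians of Suz12 were 216.0, 205.9, 233.0, 207.3, 214.7 and 251.1 CPM in wt and 185.9, 199.7, 225.1, 229.0, 228.7 and 205.6 CPM in matdel embryos. Those of Mtf2 were 202.2, 167.9, 205.7, 190.5, 192.9 and 220.7 CPM in wt and 161.8, 191.7, 179.2, 209.5, 193.3 and 189.4 CPM in matdel embryos. The highest wt median of both genes was at 11 somites and the lowest matdel median of both at 6 somites, with no steady rise between.

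Over all 37 embryos 0 of 9 genes passed by edgeR or by DESeq2 (19.3% of 14733 genes passed by edgeR), and 2 of 9 had an unadjusted p under 0.05 (32.4% of genes had). These were Suz12, with 0.040 per somite (SE 0.016, adjusted p = 0.0768 by edgeR), and Mtf2, with 0.042 per somite (SE 0.017, adjusted p = 0.0859 by edgeR). Over 5 somites the fitted rise was 14.8% (95% interval 2.52 to 28.4%) for Suz12 and 15.5% (2.29 to 30.5%) for Mtf2. Suz12 passed in female embryos alone (0.046 per somite, adjusted p = 0.0477 by edgeR) and without wt replicate 2 at 8 somites (adjusted p = 0.0297), and Mtf2 passed without wt replicate 2 at 6 somites (adjusted p = 0.0468). Without the 2 rRNA-rich libraries the slopes were 0.028 for Suz12 (adjusted p = 0.252) and 0.033 for Mtf2 (adjusted p = 0.226), both by edgeR.

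Markers of other cell types moved with somite number in the same embryos. The summed erythroid markers had medians of 110.5, 105.2, 210.7, 659.8, 872.4 and 1193 CPM from 6 to 11 somites, and the endoderm markers 766.9, 583.3, 974.8, 107.5, 133.4 and 52.1 CPM. Surface ectoderm markers had medians of 412.7, 414.8, 419.7, 357.7, 345.4 and 305.3 CPM, with Krt8 and Krt18 of the 3 genes past the threshold over all embryos and falling, and 3 of 5 endothelial markers passed and rose. When the erythroid and endoderm scores were added to the fit, the slope of Mtf2 over all embryos was -0.0063 and that of Suz12 0.026, and 167 genes in all passed in place of 2847. The part of these cells in the slopes was not tested beyond that fit, which holds no surface ectoderm or endothelial score.

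The other slopes over all embryos were 0.024 for Jarid2, 0.019 for Ezh1, 0.012 for Rbbp4, 0.0081 for Rbbp7 and 0.063 for Phf19, the last with an interval of -0.087 to 0.21. For Jarid2 the wt slope was 0.030 with all wt embryos and 0.045 (adjusted p = 0.129 by edgeR) without wt replicate 1 at 10 somites, the embryo low in tailbud markers. Without that embryo 1971 genes passed in the wt fit, in place of 1036.

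Ratios of subunits within an embryo, which do not depend on the scaling between libraries, were compared next. The log2 ratio of Ezh2 to Ezh1 was 3.54, 3.95 and 4.42 in wt and 3.44, 4.004 and 4.49 in matdel embryos (lowest, median and highest, on CPM). That of Rbbp4 to Rbbp7 was 0.37, 0.78 and 0.90 in wt and 0.62, 0.80 and 1.11 in matdel embryos. That of Mtf2 to Phf19 was 5.42, 6.40 and 10.28 in wt and 5.68, 6.46 and 8.72 in matdel embryos, the highest value belonging to the library with 0 counts of Phf19. In each ratio the ranges of the genotypes overlapped over most of their length.

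**Figure D4:**
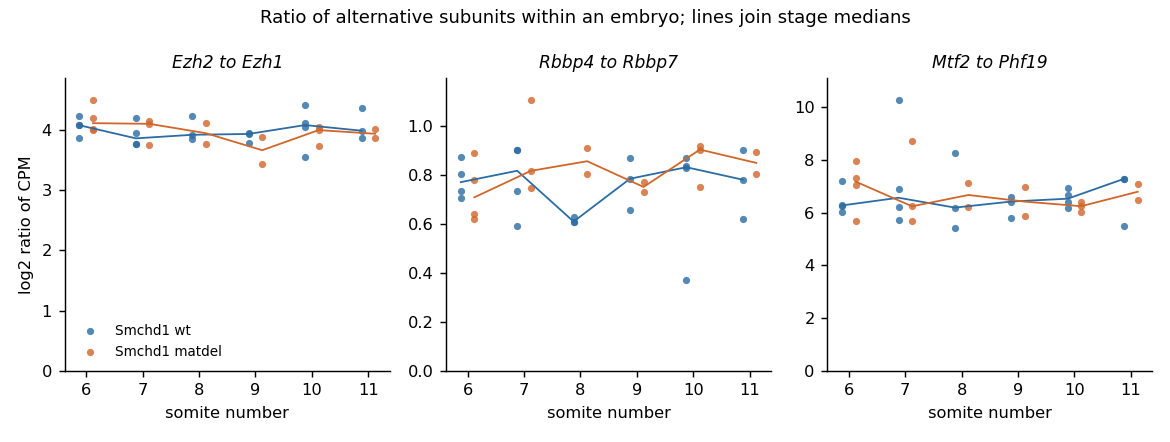
Log2 ratios of Ezh2 to Ezh1, Rbbp4 to Rbbp7 and Mtf2 to Phf19 within each embryo, against somite number, with a point per embryo coloured by genotype. The ratio of Ezh2 to Ezh1 stays between 3.44 and 4.49 at every stage and in both genotypes.

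By permutation of genotype within stages (two-sided, 100000 resamples, adjusted over 6 ratio tests), the differences, matdel minus wt, were -0.034 for Ezh2 to Ezh1 (adjusted p = 0.938), 0.075 for Rbbp4 to Rbbp7 (adjusted p = 0.618) and 0.027 for Mtf2 to Phf19 (adjusted p = 0.938). By permutation of somite number over the wt embryos, the slopes were 0.0067, -0.0044 and -0.041 per somite in the same order (adjusted p = 0.938 for each). No ratio moved beyond the spread between embryos.

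Sex was a further comparison, since Rbbp7 is on chromosome X. None of the 9 genes passed (0 of 9, where 0.217% of genes did by edgeR, and 0 of 9 by DESeq2), and 1 had an unadjusted p under 0.05 (3.26% of genes had). This was Rbbp4, at -0.097 (male minus female, 95% interval -0.18 to -0.017, adjusted p = 0.9998 by edgeR). Rbbp7 was at -0.060 (95% interval -0.14 to 0.024). All 9 differences were negative, from -0.016 for Ezh1 to -0.12 for Suz12, where 47.7% of all genes were negative. In the same fit all 12 tailbud markers were negative and all 6 endoderm and all 5 erythroid markers positive, and the part of these tissues in the result was not tested. Without wt replicate 1 at 10 somites Jarid2 was at 0.0034 and the other 8 members were still negative, and leaving out other single embryos in turn brought Ezh1 up to 0.022 and Phf19 up to 0.035. With replicate number as a block Ezh2 (0.013), Jarid2 (0.050) and Mtf2 (0.058) were positive. For scale, Kdm6a, an X-linked demethylase of lysine 27 that escapes X inactivation, was lower in males by 0.74 (adjusted p = 1.624e-09), and its Y-linked partner Uty was higher by 7.67 (adjusted p = 1.649e-15), both by edgeR.

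Levels of several subunits moved together from embryo to embryo. Of the 36 pairs of members, 29 had a positive Pearson correlation of log2 CPM over the 37 embryos, and 8 pairs passed a permutation test after Benjamini-Hochberg adjustment over the pairs, all of them positive. Among the 8 members with a mean of at least 10 CPM, 85.7% of 28 pairs were positive and 28.6% had an r of at least 0.423, the lowest that passed. Of all pairs of genes with such a mean 50.3% and 10.8% did. The cut of 0.423 was taken from the members' own pairs, so these shares are descriptions. All of these members but Ezh1 had means of 98.1 to 951.7 CPM, and no background of genes at their own level was drawn. Suz12 and Mtf2 were most alike, with r = 0.829 (adjusted permutation p = 0.00036) and Spearman's rho = 0.799 (adjusted permutation p = 0.00036). Leaving out the 2 embryos farthest from the median of Suz12 gave r = 0.797, the wt and matdel embryos alone gave 0.888 and 0.694, and removal of stage, genotype and sex gave 0.822. This likeness was not particular to PRC2, since Mtf2 ranked 101 among 9759 genes in likeness to Suz12, and Suz12 ranked 43 in likeness to Mtf2.

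The other pairs past the threshold joined Ezh2, Suz12, Mtf2 and Jarid2 with each other and Rbbp4 with Ezh2 and Eed. Ezh2 and Suz12 had r = 0.538 (rho = 0.568, adjusted permutation p = 0.0078 and 0.00324), and Jarid2 and Mtf2 had r = 0.527 (rho = 0.578, adjusted permutation p = 0.0078 and 0.00324). The pairs Ezh2 with Mtf2 (0.488), Ezh2 with Jarid2 (0.468), Suz12 with Jarid2 (0.465), Ezh2 with Rbbp4 (0.424) and Eed with Rbbp4 (0.423) were weaker. Many genes outside the complex were more alike to these members, as Suz12 ranked 1266 and Jarid2 1782 among 9759 genes in likeness to Ezh2. Without the 2 embryos farthest from the median of Ezh2, its r with Jarid2 fell to 0.246, and in matdel embryos its r with Rbbp4 was -0.00088, against 0.587 in wt embryos. Neither Ezh1, Rbbp7 nor Phf19 passed with any other member.

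**Figure D5:**
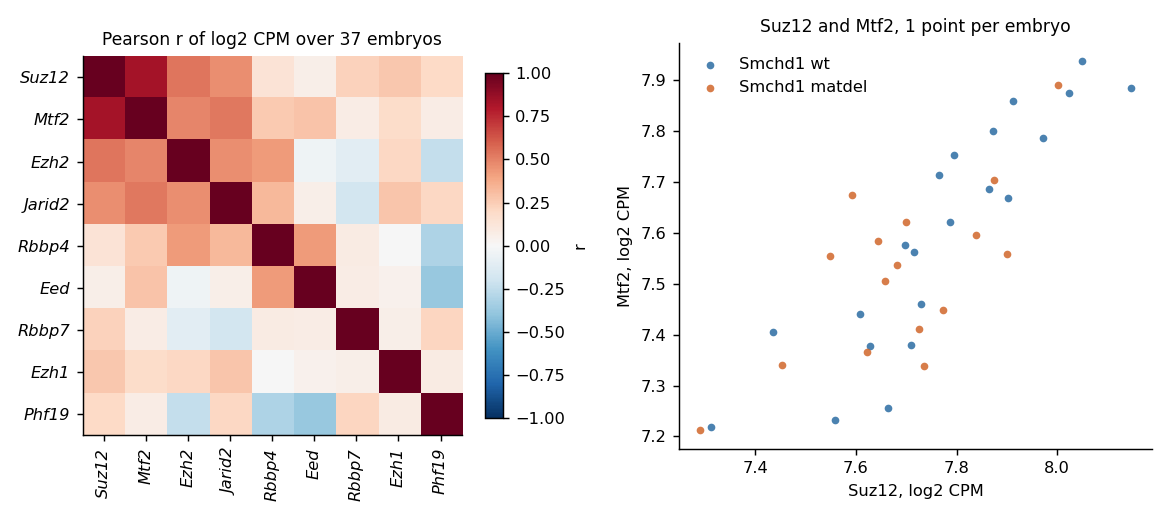
Pearson correlation of log2 CPM between PRC2 genes over 37 embryos as a heat map, beside a scatter of Mtf2 against Suz12 with a point per embryo coloured by genotype. The Suz12 and Mtf2 cell (r = 0.829) is the strongest, and no cell of Ezh1, Rbbp7 or Phf19 passes the adjusted threshold.

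The markers of other tissues varied with several of these genes over the same embryos. With the summed surface ectoderm markers r was -0.670 for Mtf2, -0.669 for Suz12, -0.662 for Ezh2, -0.585 for Jarid2 and -0.494 for Rbbp4. With the endoderm markers it was -0.597 for Rbbp4, -0.546 for Mtf2, -0.531 for Jarid2, -0.394 for Ezh2 and -0.349 for Suz12. The tailbud markers had r = 0.587 with Ezh2, 0.577 with Rbbp4 and 0.518 with Jarid2, but 0.236 with Suz12 and 0.247 with Mtf2. With total counts per library r was 0.433 for Jarid2, -0.080 for Suz12 and -0.0089 for Mtf2. The wt replicate 1 at 10 somites, lowest in tailbud markers, was also lowest of all embryos in Ezh2 (216.1 CPM), Rbbp4 (791) and Jarid2 (64.8). The rRNA-rich matdel replicate 1 at 6 somites, highest in surface ectoderm markers, was lowest in Suz12 (156.4 CPM) and Mtf2 (148.1). Values of r with the marker sums were not computed without these embryos. Between members, the 2 embryos left out above for Ezh2 were this wt replicate 1 at 10 somites and wt replicate 2 at 8 somites. For Suz12 they were this matdel replicate 1 at 6 somites and wt replicate 2 at 8 somites. The correlations are descriptions over embryos that share their tissue make-up, and the part of that make-up in the pairs was not tested.

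The genes outside the complex most like Ezh2 over the 37 embryos were Fip1l1 (r = 0.881), Srek1 (0.879), Pabpc1 (0.878), Ktn1 (0.874) and Gm11583 (0.873), of which Fip1l1, Srek1 and Pabpc1 act in the processing or binding of messenger RNA. Those most like Ezh1 were Gm16933 (r = 0.602), Pfkp (0.596), Mfap3l (0.586), Letmd1 (0.581) and Plekha2 (0.560). No gene with a mean of at least 10 CPM thus had an r above 0.602 with Ezh1. Ezh1 was read from 16 to 1369 counts per library (median 224), and the part of counting error in these values was not tested. Its r with Ezh2 was 0.204 over all embryos, -0.077 in wt and 0.528 in matdel embryos.

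Genes that work with PRC2 were examined as lists. Of all genes tested, 6.61% passed in the wt slope, 19.3% in the slope over all embryos and 0.0136% for genotype. An unadjusted p under 0.05 was held by 21.4% in the wt slope and 5.66% for genotype. Of 6 further PRC2 subunits 5 were tested, and in wt embryos Aebp2, the partner of JARID2 in PRC2.2, was the best read with a median of 102.1 CPM, followed by Lcorl (52.5), Epop (40.9), Lcor (25.7) and Phf1 (3.80), the last a PCL gene. The inhibitor AU022751 (Ezhip) had a median of 0 CPM. None of the 5 passed for somite number in wt embryos (1 unadjusted, Aebp2), and Aebp2 rose over all 37 embryos by 0.056 per somite (adjusted p = 0.0147 by edgeR). None passed for genotype (1 unadjusted), the smallest p being that of Epop, at 0.28 (adjusted p = 0.864 by edgeR).

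The enzymes that oppose PRC2 by removing methyl groups from lysine 27 or by acetylating it (Kdm6a, Kdm6b, Uty, Crebbp and Ep300) gave 0 of 5 calls for somite number in wt embryos and for genotype (0 unadjusted in both), with Kdm6b at 0.080 between genotypes (adjusted p = 0.897 by edgeR). Of the 5 Cbx genes of PRC1, which read the mark that PRC2 makes, Cbx2 was the best read, with a median of 134.9 CPM in wt embryos. Cbx7 fell with somite number in wt embryos by 0.22 per somite (adjusted p = 0.0425 by edgeR) and none of the 5 passed for genotype (0 unadjusted), where Cbx6 had the smallest p (0.11, adjusted p = 0.873 by edgeR).

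Among 12 known target genes of PRC2 that other tissues switch on, 6 passed the filter on low counts in wt embryos. Of these, 2 fell with somite number, where 6.61% of all genes passed. Gata4, a factor of heart and endoderm, fell by 0.50 per somite (adjusted p = 0.0169 by edgeR), and Pax2, a factor of kidney and brain, by 0.22 per somite (adjusted p = 0.0394 by edgeR). Endoderm markers were lower at later stages in the same embryos, Ttr falling by 0.65 and Sox17 by 0.13 per somite, and their part in the fall of Gata4 was not tested. For genotype 0 of 5 tested targets passed (0 unadjusted), with Pax2 at 0.32 (adjusted p = 0.865 by edgeR).

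As RBBP4 and RBBP7 serve in other complexes, 20 genes of the NuRD, SIN3, CAF-1, NURF and HAT1 complexes were also counted. None passed for somite number in wt embryos (2 unadjusted, where 21.4% of all genes had such a p). Over all embryos Chd3 (0.075 per somite) and Gatad2b (0.049) rose and Mta3 fell by 0.073, where 19.3% of all genes passed. None passed for genotype (2 unadjusted), where Sap30 had the smallest p (0.16, adjusted p = 0.864 by edgeR). Of 18 genes of DNA replication and mitosis, none passed in wt embryos (1 unadjusted). Mcm5 and Ccne1 fell over all embryos by 0.045 and 0.047 per somite, where 19.3% of all genes passed. None of the 18 passed for genotype (1 unadjusted), with Mcm2 at 0.12 (adjusted p = 0.864 by edgeR).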

How the data were processed

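Tailbud RNA of 37 embryos was measured by poly(A) RNA-seq. According to labels and methods, the authors trimmed reads with Trim Galore 0.4.4, mapped them to GRCm38.p6 with HISAT2 2.0.5 and counted genes in SeqMonk. The deposited values used here are the authors' raw counts per gene, not normalised. Which embryos, if any, were prepared with a stranded kit is not given in the sources used here. The deposited log2 RPKM values of Hox genes, and a deposited list of the authors' own p-values and fold changes, were not used.

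Of 35591 rows, 49 that repeated an identifier were dropped. Counts were tested with edgeR 4.0.16 (R 4.3.3; TMM, filterByExpr with a minimum count of 10, quasi-likelihood test, two-sided, Benjamini-Hochberg over all genes tested, threshold 0.05). CPM values use TMM library sizes, and a count of 2, scaled to library size, was added before a log2. Exon lengths are those of GENCODE M21. DESeq2 1.42.0 was an alternative. The scripts were tested on simulated data. Depth was 0.916 to 80.6 in units of 1e6 counts, and intervals for 0 counts cover counting error only. The labels number the samples without naming litters or batches, so p-values measure the spread between these embryos.

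The members and the gene lists were chosen with earlier results of these data known. All 9 members are named. Of each other list, genes past the threshold in the wt slope (at most 4) and the gene of smallest p for genotype are named. For Ezh2 and Ezh1 the 5 most correlated genes are named. Other names were chosen after their values were seen. A result that this rule would name is not reported here.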

Additional observations from a re-analysis of the deposited data

Results flagged for a closer look

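Each PRC2 gene was tested in every group of 4 embryos, which gave 36 tests that reuse the same embryos. Of these 36 tests, 1 found an embryo far from the others, where chance gives about 1 in 20. A single such result is thus no more than chance would give. In the wt embryos with 10 somites, Jarid2 was at 64.8 CPM in replicate 1 and at 97.4 to 101.2 CPM in the other replicates, so that the gap to the nearest embryo took up 0.897 of the whole range (critical value 0.829). The same embryo had the lowest summed tailbud markers (919.4 CPM, against 1557 to 2454 CPM), with erythroid markers at 3854 CPM and endoderm markers at 2101 CPM. The part of these cells in its Jarid2 level was not tested.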

How the results depend on the processing

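Of 2298 values recomputed under alternatives, 2156 kept their direction and their side of the threshold, 131 turned direction and 11 moved otherwise. No member passed the threshold in any genotype comparison or in the sex comparison under any alternative run.

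For genotype over all stages, log2 differences turned for Eed (-0.017) and Ezh2 (0.0070) with the replicate block, for Eed (-0.016) and Ezh2 (0.0047) without the 2 rRNA-rich libraries, and for Rbbp4 (-0.012) in female embryos alone. For the wt slope, Ezh2 turned with DESeq2 size factors (-0.00014) and with the replicate block (-1.209e-05), Eed in females (0.011) and without libraries under 4 in units of 1e6 counts (0.0022), and Phf19 in females (-0.096). With erythroid and endoderm marker scores as covariates the wt slopes of Ezh2 (-0.052), Jarid2 (-0.0074), Mtf2 (-0.031), Rbbp4 (-0.022) and Suz12 (-0.0055) turned, as did the slopes over all embryos of Ezh2 (-0.019), Jarid2 (-0.0058), Mtf2 (-0.0063) and Rbbp4 (-0.0012). Over all embryos Eed turned in females (0.011), with no filter on low counts (0.0023) and without the 2 libraries (0.0028), and Ezh2 with no sex covariate (-0.00075), with the replicate block (-0.0012) and without the 2 libraries (-0.0062). In females alone 1 member passed, Suz12 (0.046, adjusted p = 0.0477 by edgeR). For sex the replicate block turned Ezh2 (0.013), Jarid2 (0.050) and Mtf2 (0.058). Per coding kb, Rbbp7 over Rbbp4 (-0.74), Suz12 over Ezh2 (-0.35) and Eed over Mtf2 (-0.11) turned, and in matdel embryos Eed exceeded Mtf2 (0.11, adjusted permutation p = 0.043). In females the wt slopes of the ratios Rbbp4 to Rbbp7 (0.019) and Mtf2 to Phf19 (0.13) turned. The cause was not tested.

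Leaving out each embryo in turn gave these ranges. For genotype over all stages they were -0.012 to 0.014 for Eed, -0.0056 to 0.068 for Ezh1, -0.032 to 0.0046 for Ezh2 and -0.0080 to 0.019 for Rbbp4. For the wt slope they were -0.0087 to 0.0030 for Eed, -0.015 to 0.0053 for Ezh1, -0.0056 to 0.010 for Ezh2 and -0.065 to 0.080 for Phf19. Over all embryos they were -0.0038 to 0.0040 for Eed and -0.0034 to 0.0056 for Ezh2, with 0 to 1 members past the threshold (Suz12 without wt replicate 2 at 8 somites, 0.043, and Mtf2 without wt replicate 2 at 6 somites, 0.048). For sex they were -0.049 to 0.022 for Ezh1, -0.077 to 0.0034 for Jarid2 and -0.295 to 0.035 for Phf19. Suz12 over Ezh2 was 0.066 to 0.096 and passed without wt replicate 1 at 6 somites, 2 at 7, or 1 or 3 at 9 (adjusted permutation p = 0.0109 to 0.0961 over all). The ratio of Mtf2 to Phf19 gave -0.096 to 0.21 for genotype, and wt slopes were -0.011 to 0.020 for Ezh2 to Ezh1, -0.078 to 0.043 for Mtf2 to Phf19 and -0.013 to 0.0060 for Rbbp4 to Rbbp7.

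Counts of genes moved more. For genotype over all stages 2 genes became 1 in females and with the replicate block. At 6 to 8 somites 1 became 30 with DESeq2, 39 with no filter, 2 with no sex covariate and 0 with the block, and at 9 to 11 somites 1 became 0 with the block. The wt slope went from 1036 to 1556 with DESeq2, 5 with marker scores, 1910 in females and 687 to 1971 with an embryo left out (lowest without wt replicate 1 at 11 somites, highest without wt replicate 1 at 10 somites), the matdel slope from 478 to 1121 with DESeq2, 301 without the 2 libraries and 239 to 615 with an embryo left out, and the slope over all embryos from 2847 to 167 with marker scores. The slope difference went from 0 to 39 with no filter, and sex from 32 to 21 with the block. From 0 at single stages, no filter gave 7 at 6 somites, 1 at 7, 186 at 8 and 172 at 11, DESeq2 gave 2 at 7, 1 at 8 and 10 at 11, and the block gave 2 at 7, 11 at 8 and 5 at 9.

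Replicate numbers did not pair the embryos: deviations from group means correlated at -0.24 to 0.76 over 16 pairs, 7 of them above 0.1, and 3 of 16 matdel embryos correlated best with their own number. The block changed no call on a member. Depth limits Phf19, and the matdel groups of 2 embryos limit single stages.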

Other observations

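Further lists gave the following values in wt embryos, by edgeR. Among tailbud markers Nkx1-2 fell by 0.11 per somite (adjusted p = 0.0294), and among endothelial markers Emcn rose by 0.71 (adjusted p = 0.000112) and Cdh5 by 0.16 (adjusted p = 0.00673). The erythroid globin gene Hbb-y rose by 0.98 per somite (adjusted p = 0.00902). None of the marker lists held a gene past the threshold for genotype over all stages, where the smallest p of the tailbud, endoderm, endothelial, somite and surface ectoderm lists belonged to Fgf8 (0.33), Sox17 (0.095), Kdr (-0.12), Meox1 (0.75) and Epcam (0.019), with adjusted p from 0.864 to 0.990. Across the 37 embryos the genes most like Suz12 and Mtf2 were Rnf2, which encodes a PRC1 ubiquitin ligase (r = 0.901 with Suz12), and Ect2, which acts in cell division (r = 0.901 with Mtf2), both named after their values were seen.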
